A study of Mus musculus with 18 samples.

Results

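The genes described here are 10 transcription factors of the AP-1 and early response families: Fos, Fosb, Fosl1, Fosl2, Jun, Junb, Jund, Atf3, Egr1 and Egr2. They were taken by name from the GENCODE vM21 annotation of the mm10 mouse genome, in which they are 10 of 21951 protein-coding genes and of 55450 genes in all. For each gene, every H3K27me3 and H3K27ac peak was read in a window that took in the gene body, the 5 kb before it and the 1 kb after it.

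AP-1 is a dimer of basic leucine zipper proteins. Proteins of the Jun family can pair with each other or with Fos and ATF proteins, whereas Fos proteins need a partner of another kind. Many of these genes, and the zinc finger factors of the Egr family, are transcribed within minutes of a stimulus without new protein synthesis, through kinases that act on factors already bound at their promoters. In macrophages they act in the early transcriptional response to microbial products and cytokines. H3K27ac marks active promoters and enhancers, and H3K27me3, placed by the Polycomb repressive complex 2, marks repressed chromatin.

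The chromatin came from unstimulated bone marrow-derived macrophages (BMDM) of male mice, grown for 7 days in medium with L929 cell supernatant. The groups were WT (strain labelled C57BL6), mdx (labelled Dmdmdx-4Cv, with a mutation in dystrophin) and mdxTLR4-/- (labelled Bl6/Bl10, dystrophic mice that also lack Toll-like receptor 4). The H3K27me3 samples of the last group carry the name mTLR4, which was read as mdxTLR4-/-. There were 18 samples, with 2 ChIP and 2 input samples per genotype for H3K27me3, and for H3K27ac 2 ChIP samples each of WT and mdx, 1 of mdxTLR4-/- and 1 input with no genotype in its name. The authors merged replicates and called peaks with SICER2, so that each mark and genotype has 1 list of peaks, each with its count of ChIP reads, and no spread between mice. The labelled ages follow genotype, from 12 to 13 weeks for WT, 14 to 15 for mdx and 16 to 17 for mdxTLR4-/- in the H3K27me3 samples, and from 19 to 20, 21 to 22 and 23 weeks in the H3K27ac samples. Genotype, labelled strain and labelled age therefore cannot be told apart. The labelled ages rise by 1 week from each sample to the next in label order, inputs included, and whether they are the true ages is not known.

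How deeply the libraries were sequenced is unknown here. The H3K27ac lists held 12076 to 15665 peaks with 168487 to 274020 reads, and the H3K27me3 lists 28143 to 41780 peaks with 7358418 to 10199918 reads. The median H3K27ac peak of a list held only 8 to 10 reads, against 75 to 123 for H3K27me3, so single H3K27ac peaks were measured less precisely. All 10 macrophage markers, among them Spi1 and Lyz2, had an H3K27ac peak in the window in every list and no H3K27me3 peak in any. The starts of 8, 7 and 6 of these 10 markers were under H3K27ac in WT, mdx and mdxTLR4-/-, against 23.9%, 20.5% and 20.9% of protein-coding genes. Of 38 marker genes of neutrophils, dendritic, T, B, erythroid, fibroblast and muscle cells, 1 had its start under H3K27ac in any list (Tal1, in mdxTLR4-/-). By the window, 1 or 2 markers of each of these other cell types had an H3K27ac peak in WT, with up to 59 reads (Xcr1). Tlr4 had its start under an H3K27ac peak in all 3 lists, also in mdxTLR4-/-, and peaks therefore did not check its deletion. Peaks did not check the dystrophin mutation either, since Dmd had no start under a peak in any list.

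Of the 10 genes, 8 have an entry in the RefSeq promoter table (GRCm38.p6), and Fosl1 and Egr1 do not. The 250 bases upstream of the RefSeq start are shown for 4 genes, chosen because they stand for different chromatin layouts at these genes. Capitals mark a match to a searched motif, and a stretch with no capitals has none. The stretch of Fos (chr12:85473640-85473889, plus strand) lay wholly under H3K27ac in all 3 genotypes. That of Atf3 (chr1:191183334-191183583, minus strand), which starts a transcript inside the long gene, also lay wholly under H3K27ac in all 3. That of Fosb (chr7:19310046-19310295, minus strand) lay under no peak of either mark. That of Egr2 (chr10:67535249-67535498, plus strand) lay wholly under H3K27me3 in all 3. It belongs to the outermost of the 5 RefSeq starts of Egr2, the only 1 under H3K27me3.
Fos: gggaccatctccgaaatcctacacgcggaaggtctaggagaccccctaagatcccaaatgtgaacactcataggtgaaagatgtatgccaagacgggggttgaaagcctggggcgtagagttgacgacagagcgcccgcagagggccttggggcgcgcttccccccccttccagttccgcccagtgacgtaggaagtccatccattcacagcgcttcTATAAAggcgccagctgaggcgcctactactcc
Atf3: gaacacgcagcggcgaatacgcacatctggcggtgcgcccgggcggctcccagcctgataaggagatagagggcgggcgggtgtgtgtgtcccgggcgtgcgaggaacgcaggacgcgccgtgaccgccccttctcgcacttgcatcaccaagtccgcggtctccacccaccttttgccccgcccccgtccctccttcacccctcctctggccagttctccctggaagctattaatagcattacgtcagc
Fosb: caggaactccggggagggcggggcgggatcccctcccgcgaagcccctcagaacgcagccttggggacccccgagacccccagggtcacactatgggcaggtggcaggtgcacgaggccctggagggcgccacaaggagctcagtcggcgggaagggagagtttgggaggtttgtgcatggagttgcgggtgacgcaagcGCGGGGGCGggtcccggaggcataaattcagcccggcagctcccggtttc
Egr2: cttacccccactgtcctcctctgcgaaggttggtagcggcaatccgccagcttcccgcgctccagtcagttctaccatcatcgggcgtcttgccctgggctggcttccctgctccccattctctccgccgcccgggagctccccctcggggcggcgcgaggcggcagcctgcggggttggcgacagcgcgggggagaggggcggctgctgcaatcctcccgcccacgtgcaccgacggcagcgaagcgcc

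Motifs were searched on both strands of the 300 bases from 250 before to 50 past the start. TATAAA, the letters of a TATA box, stood 33 bases upstream of the start of Fos and at the RefSeq start of Junb. That Junb start lies 30 bp upstream of the GENCODE start. Of 32817 RefSeq promoters, 13.6% held TATAAA. GCGGGGGCG, letters that EGR proteins can bind, stood 50 bases upstream of the start of Fosb and 79 bases upstream of that of Fosl2, against 3.47% of promoters that held it or GCGTGGGCG. None of the 8 stretches held the cyclic AMP response element TGACGTCA (1.79% of promoters), the AP-1 site TGACTCA or TGAGTCA (5.20%) or the serum response element in its usual form (1.63%). No motif overlapped another. The stretches were rich in CpG, with a median of 23 CpG dinucleotides (range 3 to 32) against 7 over all promoters. The exception was Jund with 3, whose RefSeq start lies 1210 bp from its GENCODE start.

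The 10 genes fell into layouts that the 3 genotypes mostly shared. Fos, Jun, Junb and Jund carried H3K27ac and no H3K27me3 in the window in any list. Fosl2 had H3K27ac over its start and H3K27me3 upstream, and Atf3 had H3K27ac in its introns and over the start of a shorter transcript. Fosb, Fosl1, Egr1 and Egr2 were mainly H3K27me3 genes, with small H3K27ac peaks that shared bases with H3K27me3 in 1 case only.

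**Figure D1:**
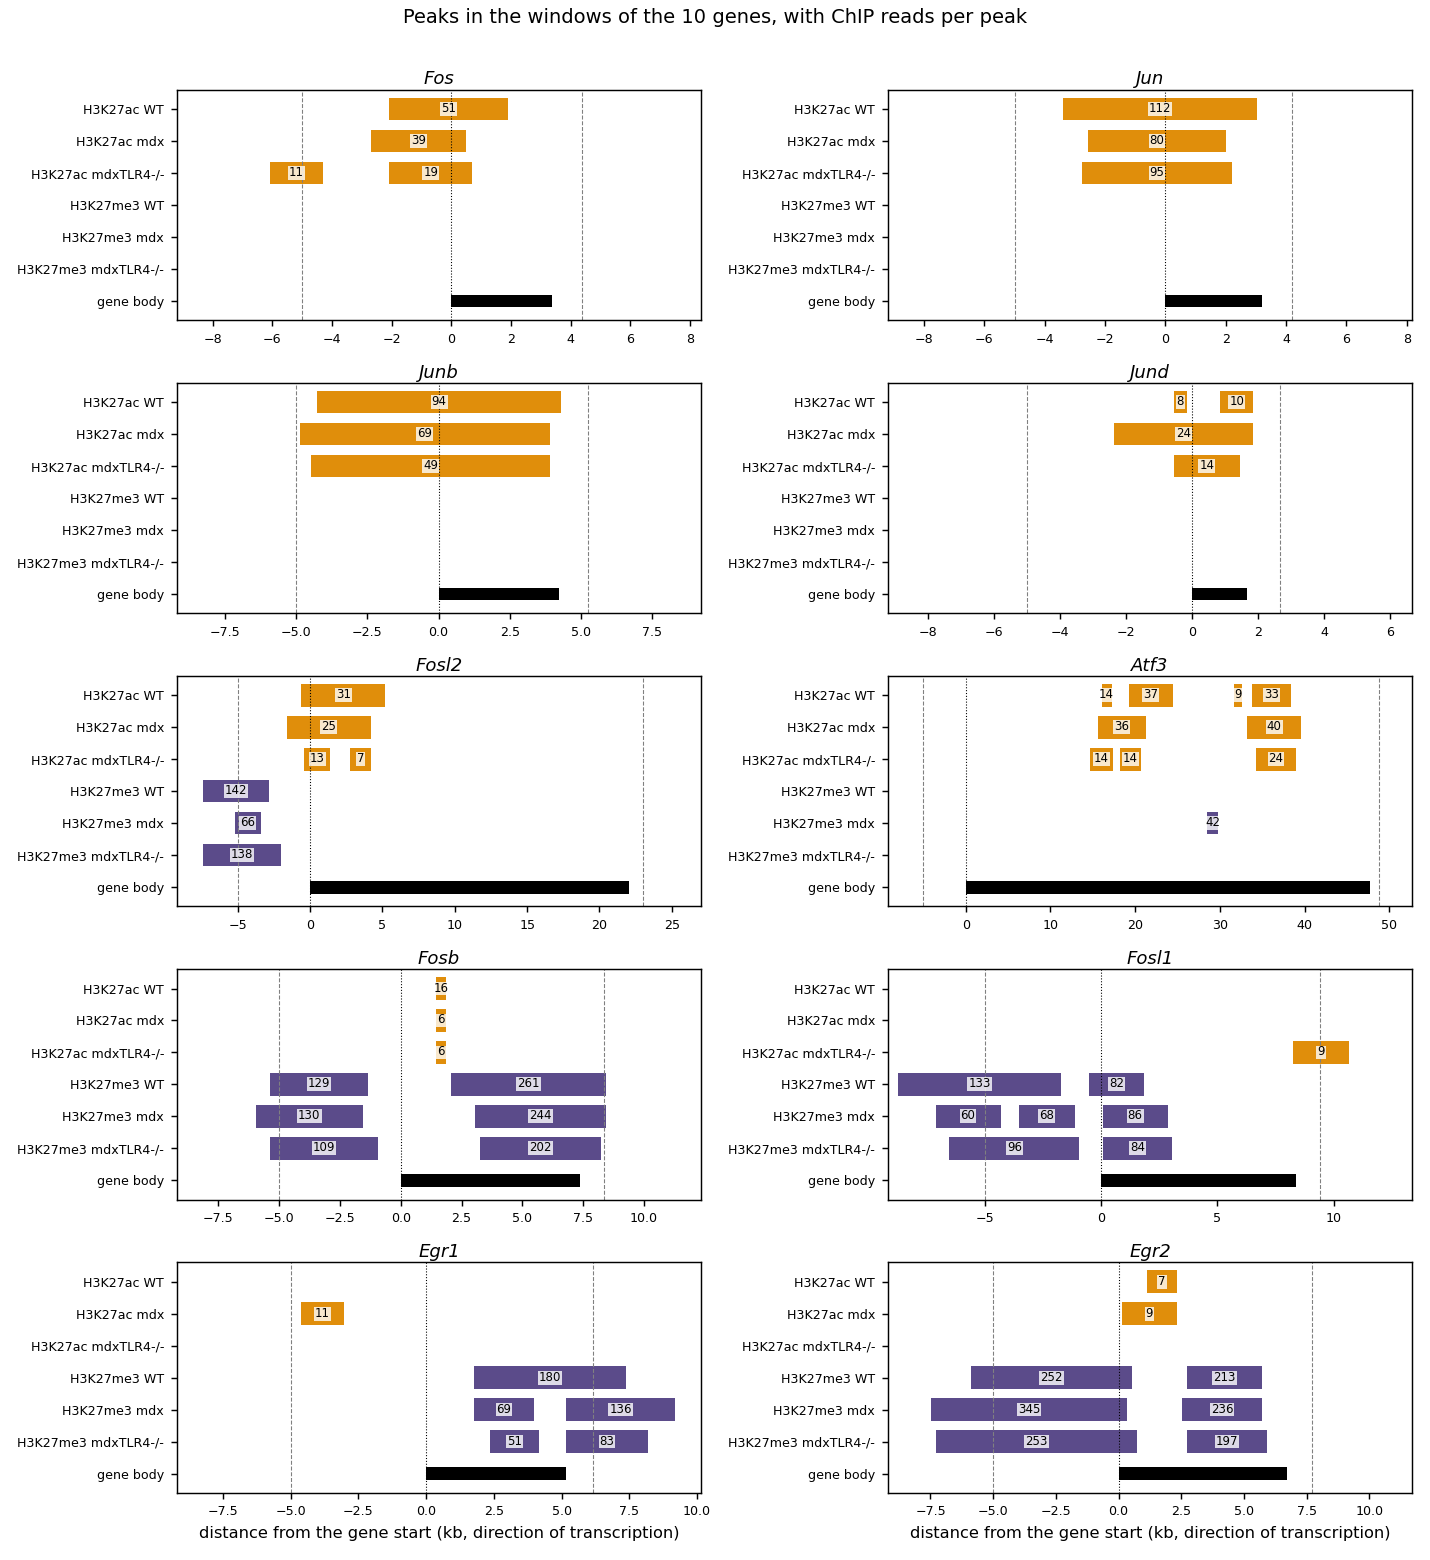
Peaks of H3K27ac (orange) and H3K27me3 (purple) in each genotype around the 10 genes, as distance from the gene start in kb along the direction of transcription, with the ChIP reads of each peak printed on it. Black bars are gene bodies, dotted lines starts and dashed lines the window ends; Fos, Jun, Junb and Jund show no purple, and the purple peaks of Fosb leave its start bare.

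An H3K27ac peak lay in the window of 8 genes in WT BMDM, 9 in mdx and 8 in mdxTLR4-/-, where 39.8%, 34.5% and 36.5% of protein-coding genes had one. The mdxTLR4-/- count takes in Fosl1, through a peak over the start of the neighbouring gene Ccdc85b. The gene start was under H3K27ac in 4 genes in WT (Fos, Fosl2, Jun and Junb) and in 5 in mdx and in mdxTLR4-/- (the same genes and Jund), against 23.9%, 20.5% and 20.9% of protein-coding genes. The start is the outermost annotated one, so Atf3, with H3K27ac over the start of a shorter transcript in every list, was not counted. An H3K27me3 peak lay in the window of 5 genes in WT, 6 in mdx (with Atf3) and 5 in mdxTLR4-/-, against 38.4%, 41.3% and 39%. The start was under H3K27me3 in 2 genes in WT (Fosl1 and Egr2) and in Egr2 alone in mdx and in mdxTLR4-/-, against 23.6%, 23.9% and 22.7%. The share of the genes with H3K27ac was thus above that of protein-coding genes, and that with H3K27me3 was closer to it.

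Jun encodes c-Jun, the main Jun-family partner of Fos proteins, and lies on chromosome 4 from 95049034 to 95052222, minus strand. A single H3K27ac peak covered its start and its whole coding sequence in every genotype, with 112 (WT), 80 (mdx) and 95 (mdxTLR4-/-) reads. Per kb of peak this was 17.5, 17.4 and 19.0 reads, the highest density among the genes with a peak over the start. In the 100 kb around its start there was no other H3K27ac peak in any list. The nearest H3K27me3 peak was 915 kb away in WT and 312 kb away in mdxTLR4-/-, but 6.62 kb away in mdx, where a peak of 3.40 kb held 84 reads. At 24.7 reads per kb it was below the mdx list medians of 89 reads and 28.3 per kb. The mdx list held the most H3K27me3 peaks, and 21.4% of all H3K27me3 regions were listed in mdx alone. The antisense gene Junos starts in the same window, and reads of a histone mark cannot be assigned to one of the pair.

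Junb, on chromosome 8 from 84974484 to 84978718 (minus strand), encodes a Jun protein that can oppose c-Jun. It had the widest H3K27ac peaks among the 10 genes, at 8600, 8800 and 8400 bp in WT, mdx and mdxTLR4-/-, which ran over the gene body and reached the end of the neighbouring gene Prdx2. They held 94, 69 and 49 reads, or 10.9, 7.84 and 5.83 reads per kb. The values were lower in mdx than in WT and lowest in mdxTLR4-/-. A large H3K27me3 domain of 28.4 to 29.4 kb, with 1518 to 1830 reads, began 22.9 to 23.9 kb from the Junb start in all 3 lists.

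Fos, on chromosome 12 from 85473890 to 85477273 (plus strand), encodes c-Fos, which cannot pair with itself. The peak over its start held 51 reads in WT BMDM, 39 in mdx and 19 in mdxTLR4-/-. In WT it ran from 2089 bp upstream to 1910 bp past the start, and in mdx and mdxTLR4-/- it ended 510 and 710 bp past it. In mdxTLR4-/- a second peak of 11 reads lay 4290 to 6089 bp upstream, where WT and mdx had none. Over all peaks of the window the density was 12.8, 12.2 and 6.52 reads per kb, so that WT and mdx were alike and mdxTLR4-/- was lower. The 3 starts of GENCODE transcripts of Fos were all under H3K27ac in WT, and 1 of them was in mdx and in mdxTLR4-/-.

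Jund, on chromosome 8 from 70698949 to 70700616 (plus strand), encodes the Jun protein known for steady expression in resting cells. WT had 2 H3K27ac peaks of 8 and 10 reads with the gene start in the gap of 1000 bp between them, and mdx and mdxTLR4-/- each had 1 peak over the start, with 24 and 14 reads. The peaks of the 3 lists thus overlapped in place and were split differently. The mdx peak also reached 2348 bp upstream of the start, against 548 bp in WT and in mdxTLR4-/-. The density was 12.9, 5.71 and 7.00 reads per kb in WT, mdx and mdxTLR4-/-, the inverse order of the peak lengths of 1400, 4200 and 2000 bp, whereas the read counts were highest in mdx. H3K27me3 lay close by, with the nearest peak 6.85, 6.55 and 6.85 kb from the start, and covered 40.1%, 42.9% and 39.5% of the 100 kb around it.

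Fosl2 encodes Fra-2, a Fos protein without the strong transactivation domain of c-Fos, and lies on chromosome 5 from 32135801 to 32157842 (plus strand). Its start was under H3K27ac in every list, and the window held 31, 25 and 20 reads in WT, mdx and mdxTLR4-/-. The 5800 bp peak of WT and of mdx was replaced in mdxTLR4-/- by peaks of 1800 and 1400 bp. Upstream of the start an H3K27me3 peak of 142 (WT), 66 (mdx) and 138 (mdxTLR4-/-) reads ended 2801, 3401 and 2001 bp before it. The low mdx value came from a split: an additional mdx peak of 61 reads lay just outside the window, and the whole region held 142, 127 and 138 reads.

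Atf3 encodes a bZIP protein that is induced by stress and Toll-like receptor signals and restrains inflammatory genes. The annotated gene runs on chromosome 1 from 191170296 to 191218039 (minus strand), and its outermost start was under no peak. A shorter transcript begins 34706 bp into the gene by RefSeq, and that start was under H3K27ac in every genotype. The peaks over it held 33, 40 and 24 reads in WT, mdx and mdxTLR4-/-, and with the intronic peaks the window held 93, 76 and 52. H3K27me3 appeared only in the mdx list, as 1 intronic peak of 1400 bp and 42 reads.

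Fosb encodes FosB, a Fos protein with a transactivation domain, and lies on chromosome 7 from 19302696 to 19310051 (minus strand). H3K27me3 lay on both sides of its start and not over it: the upstream and downstream peaks held 129 and 261 reads in WT, 130 and 244 in mdx, and 109 and 202 in mdxTLR4-/-. They left a gap of 3400, 4600 and 4200 bp around the start. In this gap, 1451 to 1850 bp past the start and on exonic sequence that is not coding in the annotation, lay an H3K27ac peak of 400 bp with 16 reads in WT and 6 in both mdx and mdxTLR4-/-. Its bounds were the same in the 3 lists, which holds for 37 of the 6509 H3K27ac regions shared by the 3 genotypes (0.568%). It was singled out after its values were seen, and its 6 reads in mdx and mdxTLR4-/- are close to the lowest count of any H3K27ac peak, 5.

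Fosl1, on chromosome 19 from 5447547 to 5455946 (plus strand), encodes Fra-1. Its window held 215 (WT), 214 (mdx) and 180 (mdxTLR4-/-) H3K27me3 reads. The WT peak covered the start, and in mdx and mdxTLR4-/- the corresponding peak began 54 bp past it, less than 1 SICER window of 200 bp. The loss of the start from the H3K27me3 count in those lists therefore rested on 54 bp. An H3K27ac peak was present in mdxTLR4-/- alone, with 9 reads, from 8254 bp past the start at the end of the gene. Of its 2400 bp, 2254 lay outside the Fosl1 body. The peak covered the start of the neighbouring gene Ccdc85b, which overlaps the window, and cannot be assigned to Fosl1.

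Egr1 encodes a zinc finger factor induced by growth factors and stress, and lies on chromosome 18 from 34859823 to 34864984 (plus strand). It had no H3K27me3 over its start. The H3K27me3 peaks began 1778 bp past the start in WT and mdx and 2378 bp past it in mdxTLR4-/-, and held 180, 205 and 134 reads. They were 1 peak in WT and 2 in mdx and in mdxTLR4-/-. H3K27ac was listed in mdx alone, as a peak of 11 reads 3023 to 4622 bp upstream. In the other lists the nearest H3K27ac peak was 70.4 kb (WT) and 70.8 kb (mdxTLR4-/-) away.

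Egr2, on chromosome 10 from 67535475 to 67542188 (plus strand), encodes Krox20, which acts in myelination and in macrophage and lymphocyte gene control. It had the most H3K27me3 of the 10 genes, with 465 (WT), 581 (mdx) and 450 (mdxTLR4-/-) reads. One peak covered the outermost start with 252, 345 and 253 reads, and a denser one covered 1410 bp of coding sequence with 71.0, 73.8 and 61.6 reads per kb. Between them lay an H3K27ac peak of 7 reads in WT and 9 in mdx, and none in mdxTLR4-/-. RefSeq lists 5 starts for Egr2. Of these, 1 was under H3K27me3 in every list, and another was under this H3K27ac peak in WT and in mdx. GENCODE transcripts have 6 starts, of which 3 were under H3K27me3 in every list.

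**Figure D2:**
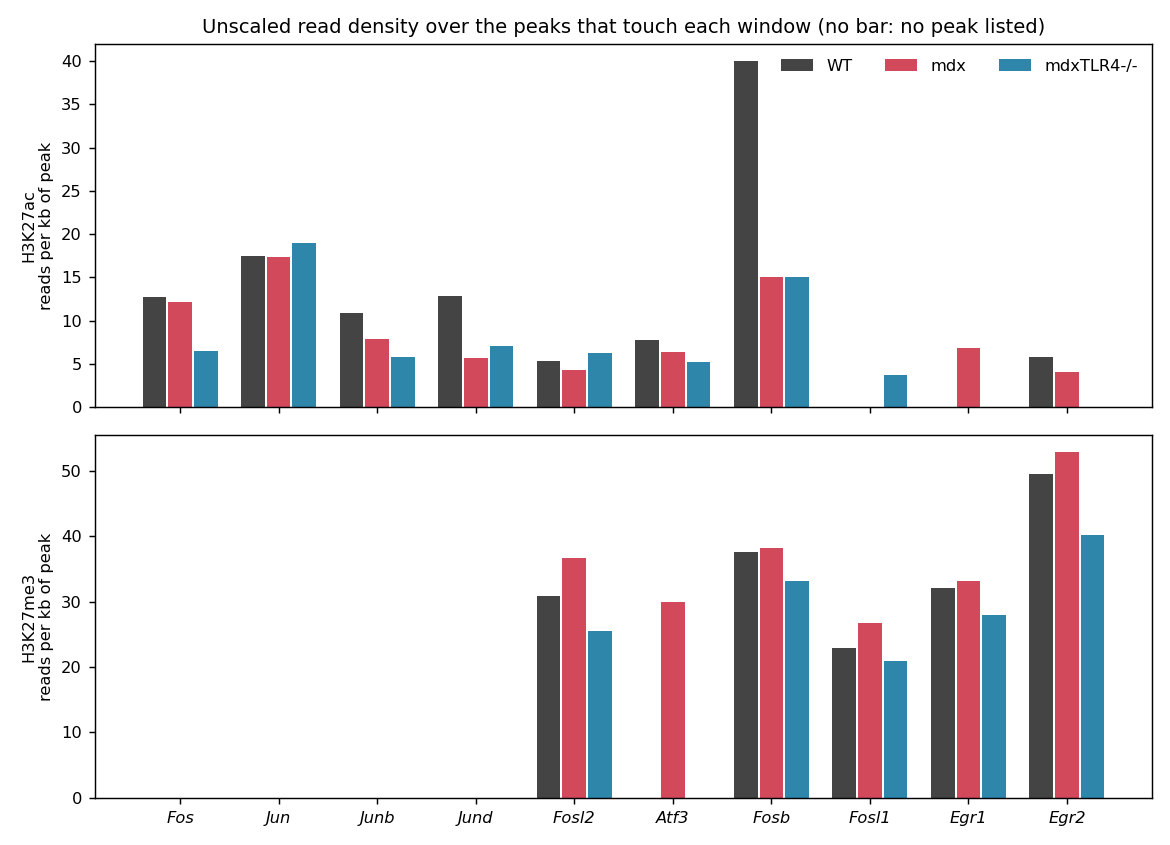
Reads per kb over all peaks that touch the window of each gene, unscaled, for H3K27ac (upper panel) and H3K27me3 (lower panel) in WT, mdx and mdxTLR4-/- BMDM; a missing bar means that no peak was listed. Jun is nearly level at 17.4 to 19.0, Fos and Junb are lowest in mdxTLR4-/-, and the tallest H3K27ac bar, Fosb in WT, rests on 16 reads.

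Where both marks lay in one window they rarely touched. Both were present in 3 genes in WT (Fosb, Fosl2 and Egr2) and 5 in mdx (with Atf3 and Egr1). In mdxTLR4-/- both were present in 3 (Fosb, Fosl2 and, through the peak over the Ccdc85b start, Fosl1). The shares of protein-coding genes with both were 10.0%, 9.20% and 8.91%. Bases under both marks were found in none of the 3 genes in WT, in 1 of the 5 in mdx and in none of the 3 in mdxTLR4-/-. The one case was Egr2 in mdx, with 200 bp, a single SICER window. Among protein-coding genes with both marks in the window, 10.3%, 6.59% and 6.54% had a shared base, so few shared bases are what most genes showed.

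To compare genotypes, the read density of a gene in one list was divided by that in another, for genes with a peak in both. Intervals are exact 95% Clopper-Pearson intervals of the read counts and cover counting error only. Since each genotype is 1 pooled list, no test and no p-value was possible, and a gene was counted as higher or lower when its density differed by at least 1.5 times. The comparisons share lists, so their values are given side by side.

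H3K27ac density was lower in mdx than in WT in all 8 of the genes with peaks in both, against 60.1% of protein-coding genes, with a median ratio of 0.762 against 0.891 over 6564 protein-coding genes. By read counts 2 of the 8 went the other way, Jund (24 reads in mdx against 18) and Egr2 (9 against 7), whose mdx peaks were longer. Past 1.5 times were 0 higher and 2 lower genes, against 13.6% higher and 25.6% lower among protein-coding genes. The 2 were Jund, at 0.444 (interval 0.231 to 0.869), and Fosb, at 0.375 (0.120 to 1.01). The Jund value sets peaks of 1400 bp against one of 4200 bp, and its ratio of read counts was 1.33 (0.694 to 2.61). Fos and Jun were close to 1, at 0.956 (0.613 to 1.48) and 0.994 (0.736 to 1.34). The direction depended on the scaling: per 1000000 reads in peaks the median was 1.09 (1.27 over protein-coding genes), with 2 of 8 genes below 1 (28.9% of protein-coding genes) against 8 of 8 unscaled, and the 2 genes lower by 1.5 times stood beside 8.01% of protein-coding genes.

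Between mdxTLR4-/- and WT, 4 of 7 genes were lower by 1.5 times in H3K27ac density and 0 were higher, against 27.4% and 12.1% of protein-coding genes. They were Fos at 0.512 (0.315 to 0.819), Fosb at 0.375 (0.120 to 1.01), Junb at 0.534 (0.370 to 0.762) and Jund at 0.544 (0.251 to 1.16), again over peaks of unequal length. Jun, at 1.09 (0.817 to 1.44), and Fosl2, at 1.17 (0.632 to 2.12), were not lower. The median was 0.544, against 0.871 over protein-coding genes. Per 1000000 reads in peaks it was 0.885 against 1.42, with 1 gene lower and 2 higher by 1.5 times (6.16% and 44.3% of protein-coding genes). With densities divided by the 1st percentile of their list it was 0.476, with 5 lower and 0 higher (38.5% and 7.72%). A scaling multiplies all ratios of a comparison alike, so the median of the genes was below that of protein-coding genes under each.

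Between mdxTLR4-/- and mdx the median H3K27ac ratio of 7 genes was 1.00, against 0.969 over protein-coding genes, with 0 higher (18.4% of protein-coding genes) and 1 lower (21.4%). The lower gene was Fos, at 0.535 (0.321 to 0.884), with peaks of 4600 bp in mdxTLR4-/- against 3200 bp in mdx. Its ratio of read counts was 0.769 (0.461 to 1.27), an interval that takes in 1. The peak over the Fos start alone had 6.79 reads per kb in mdxTLR4-/- and 12.2 in mdx. Fosl2 had the highest ratio, 1.45 (0.764 to 2.72). Per 1000000 reads in peaks the median was 1.14, with 1 gene higher and 1 lower (25.3% and 14.8% of protein-coding genes), and relative to the 1st percentile it was 0.875, with 0 higher and 2 lower (11.8% and 29.8%).

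Ratios between genes of the same list do not depend on how lists are scaled. The H3K27ac density of Jun was 1.60 times that of Junb in WT (interval 1.21 to 2.13), 2.22 times in mdx (1.59 to 3.11) and 3.26 times in mdxTLR4-/- (2.28 to 4.70). Jun stood at 1.37 times Fos in WT (0.977 to 1.95), 1.43 times in mdx (0.962 to 2.15) and 2.91 times in mdxTLR4-/- (1.91 to 4.55). Relative to Jun, Junb and Fos were thus lowest in mdxTLR4-/-. Atf3 was also lowest relative to Jun there, whereas the density of Fosl2 was highest there (6.25 reads per kb, against 5.34 in WT and 4.31 in mdx). The pairs of Jun with Junb and Fos were chosen after their values were seen, and how often other pairs differ as much was not counted. The mdxTLR4-/- list came from 1 ChIP sample where the others came from 2.

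H3K27me3 density differed little among the 5 genes that had the mark in each list. The median ratio of mdx over WT was 1.07, against 1.20 over protein-coding genes, with 0 genes higher (6.16% of protein-coding genes) and 0 lower (0.562%). For mdxTLR4-/- over mdx it was 0.782 against 0.812, with 0 higher (0.431%) and 0 lower (9.54%). For mdxTLR4-/- over WT it was 0.869 against 0.974, with 0 higher (1.5%) and 0 lower (2.45%). Unscaled, the ratio of mdx to WT was below 1 in 0 of 5 genes, as in only 9.35% of protein-coding genes, and ran from 1.02 in Fosb to 1.19 in Fosl2. The ratio of mdxTLR4-/- to mdx was below 1 in 5 of 5 genes, as in 91.5% of protein-coding genes, and that of mdxTLR4-/- to WT in 5 of 5, against 58.8%. These directions depended on the scaling: per 1000000 reads in peaks the 3 medians were 0.872, 1.08 and 0.983, with 5, 1 and 4 of 5 genes below 1 (56.0%, 19.2% and 21.9% of protein-coding genes). Relative to the 1st percentile they were 0.917, 0.998 and 0.951, with 3, 3 and 4 genes below 1 (39.2%, 39.2% and 29.7%). Egr2, with the most reads, had a ratio of mdxTLR4-/- to WT of 0.812 (0.712 to 0.927) unscaled.

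**Figure D3:**
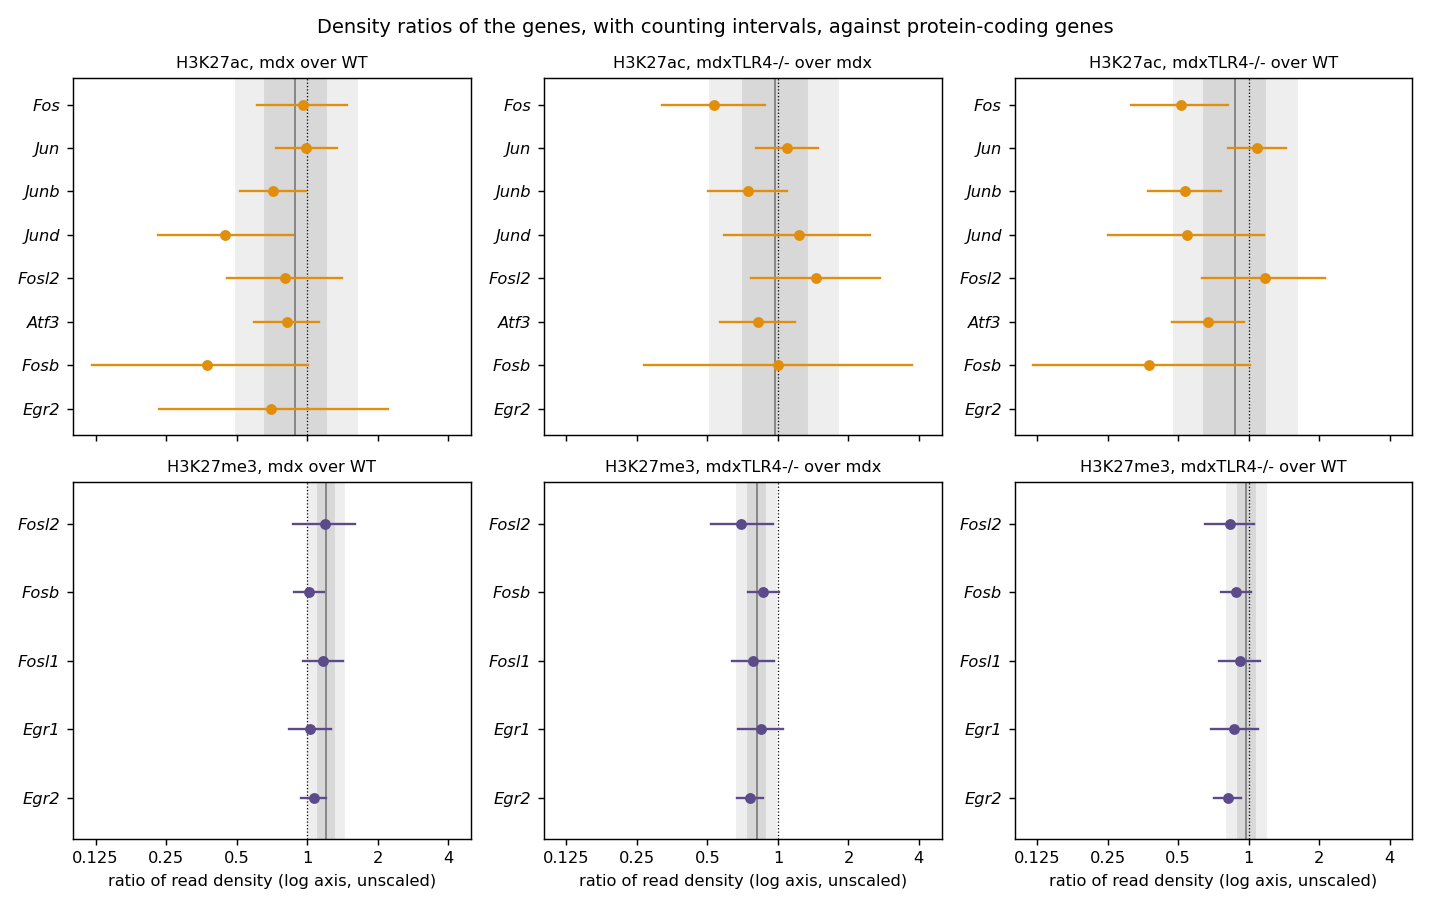
Ratio of unscaled read density between genotypes (log axis) for each gene with a peak in both lists, H3K27ac above and H3K27me3 below; points are ratios, lines exact 95% counting intervals, shading the central 50% and 80% of protein-coding genes, grey lines their median and dotted lines 1. In mdxTLR4-/- over WT, Fos and Junb sit at 0.512 and 0.534 and Jun at 1.09, while all H3K27me3 points stay within 1.5 times of 1.

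Peaks overlapping in any genotypes were joined into regions, of which 13 for H3K27ac and 9 for H3K27me3 touched a window. Of these, 8 H3K27ac and 8 H3K27me3 regions were present in all 3 genotypes, where 28.7% of all H3K27ac and 47.1% of all H3K27me3 regions were. The H3K27ac regions listed in fewer genotypes were the upstream peak of Fos, a 1000 bp peak in Atf3, and those of Fosl1, Egr1 and Egr2. The regions listed in 1 genotype alone held 9 to 11 H3K27ac reads, near the median of a list, and their absence from another list at this depth does not show that the mark is absent.

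The surroundings were marked beyond the windows. Within 50 kb on either side of the start, H3K27ac covered a median of 6.70%, 5.90% and 4.70% of sequence in WT, mdx and mdxTLR4-/-, against 1.67%, 1.20% and 1.00% around protein-coding genes. H3K27me3 covered 22.8%, 24.8% and 17.6%, against 6.62%, 7.40% and 5.40%. This H3K27me3 was uneven: Junb and Jund, with no H3K27me3 in the window, had 36.5% to 42.9% of the 100 kb under it. Fos, Jun and Atf3 had none in WT and mdxTLR4-/- and 1 peak each in mdx, the list with the most H3K27me3 peaks.

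Window coverage gave the likeness between genes, as the mean absolute difference over the 6 lists in percentage points. The most alike of the 10 were Fosl2 and Atf3, at 5.35, and Fosb and Egr2, at 5.86, while Fosb and Junb were least alike at 75.2. The protein-coding genes nearest to the median coverages of the 10 were Nfkbib at 2.34, Zfp319 at 2.39 and U2af2 at 2.47.

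The other AP-1 and bZIP partners comprised 15 genes. Their starts were under H3K27ac in 10, 10 and 8 genes in WT, mdx and mdxTLR4-/-, and under H3K27me3 in 2, 0 and 0. Among protein-coding genes these shares were 23.9%, 20.5% and 20.9% for H3K27ac and 23.6%, 23.9% and 22.7% for H3K27me3. Batf3, a factor of dendritic cell development, had its start under H3K27me3 in WT. It had 162, 229 and 164 H3K27me3 reads in WT, mdx and mdxTLR4-/-. Most H3K27ac reads in WT were at Maf (96, 76 and 71), Crem (94, 70 and 74) and Mafg (73, 39 and 38).

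Of 23 other early response genes, the start was under H3K27ac in 13, 10 and 9 and under H3K27me3 in 3, 2 and 3. The shares of protein-coding genes were 23.9%, 20.5% and 20.9% for H3K27ac and 23.6%, 23.9% and 22.7% for H3K27me3. Egr3 and Egr4, like Egr2, had the outermost start under H3K27me3 in every list, and neither had an H3K27ac peak in any. H3K27me3 covered 100% of the Egr4 window in each list (1424, 1505 and 1190 reads) and 65.0%, 86.0% and 72.0% of the Egr3 window (993, 1340 and 879 reads). It covered 67.1%, 67.1% and 70.2% of the Egr2 window, with fewer reads (465, 581 and 450). Csrnp1 had H3K27me3 over its start in WT and mdxTLR4-/- and not in mdx, with 90, 87 and 172 reads. The most H3K27ac reads in WT were at Klf6, a zinc finger factor (225, 167 and 154), Zfp36, which encodes the mRNA decay factor tristetraprolin (181, 124 and 71), and Dusp1, a phosphatase of MAP kinases (139, 72 and 104).

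Of 22 kinases and factors that act upstream, the start was under H3K27ac in 9 genes in each list and under H3K27me3 in none. The shares of protein-coding genes were 23.9%, 20.5% and 20.9% for H3K27ac and 23.6%, 23.9% and 22.7% for H3K27me3. The most H3K27ac reads in WT were at Map3k8, the kinase Tpl2 that acts below Toll-like receptors (57, 42 and 40), Mrtfa, a cofactor of serum response factor (53, 12 and 29), and Map2k3, a kinase of p38 (47, 40 and 31).

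The H3K27ac density ratios of these lists can be set beside those of the 10 genes. Their medians for mdxTLR4-/- over WT were 0.758 in 12 partners, 1.04 in 14 early response genes and 0.908 in 16 upstream genes, against 0.544 in 7 of the 10 genes and 0.871 over protein-coding genes. For mdx over WT they were 0.828, 0.894 and 0.770, against 0.762 and 0.891. For mdxTLR4-/- over mdx they were 0.918, 1.14 and 1.17, against 1.00 and 0.969. The 10 genes had the lowest of these medians in mdxTLR4-/- over WT, lay within 0.01 of the upstream genes in mdx over WT, and were above the partners in mdxTLR4-/- over mdx.

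**Figure D4:**
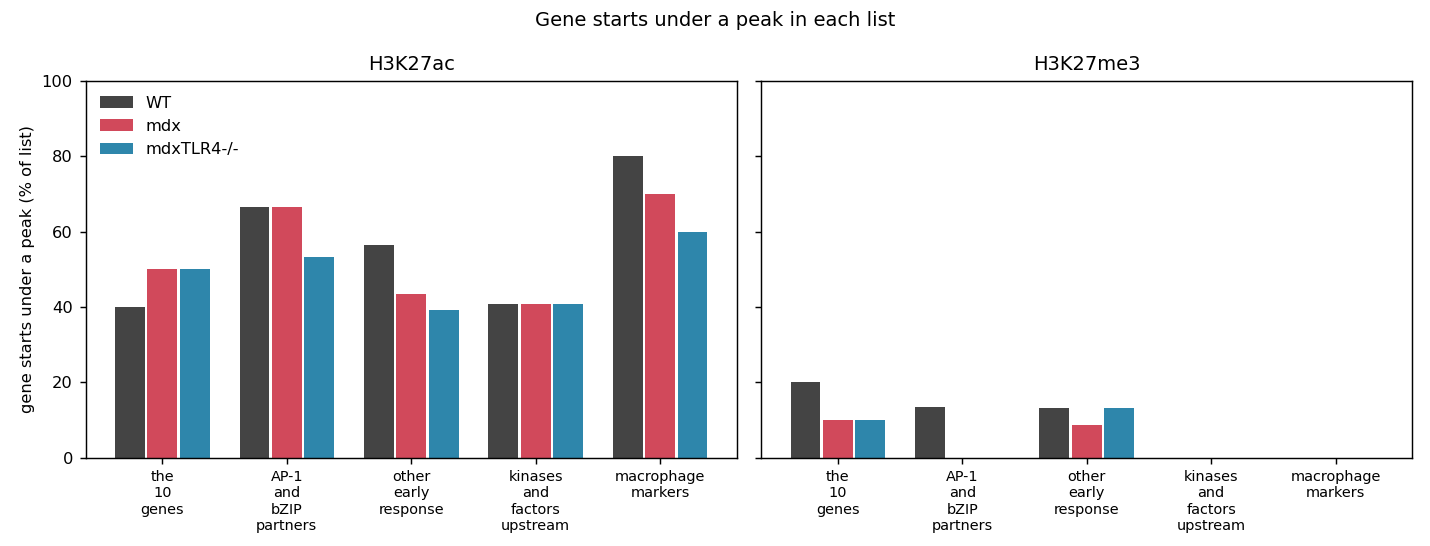
Share of genes in each list whose start lay under an H3K27ac peak (left) or an H3K27me3 peak (right), in % of the list, for WT, mdx and mdxTLR4-/- BMDM. The 10 genes stand at 40 to 50% for H3K27ac and 10 to 20% for H3K27me3, and the macrophage markers and upstream genes have no H3K27me3 bar. Protein-coding genes, not plotted, had 20.5% to 23.9% for H3K27ac and 22.7% to 23.9% for H3K27me3.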

How the data were processed

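Per the labels and the study's methods, the authors mapped native ChIP-seq reads to mm10 with Bowtie2 2.3.4, merged replicates and called peaks with SICER 2.0 (window 200 bp, gap 600 bp, FDR 0.01). The labels also list cutadapt 1.15 and CASAVA 1.8. The removal of duplicate reads and excluded regions are not given in the sources used here. The 6 deposited lists give a count of ChIP reads per peak, not scaled for depth or length and without input subtracted.

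Peaks were joined to GENCODE vM21 genes by at least 1 bp of overlap. Density is the reads of all peaks touching a window per kb of those peaks, and its interval is counting error only, since reads are not independent molecules. Every peak of the 10 genes was reported. Genes of other lists were named for a start under H3K27me3 or, 3 per list, for the most H3K27ac reads in WT, and 3 genes for coverage nearest to the median of the 10. Of the genes so named, 1 is left out of the report. The genes and lists were chosen with earlier results of these data known. Overlap code was tested on 4000 simulated windows, with 100% recovered. Scripts ran in Python 3.11.15 with pandas 2.3.3, numpy 2.4.6, scipy 1.17.1 and, for plots, matplotlib 3.10.9.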

Additional observations from a re-analysis of the deposited data

How the results depend on the processing

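Of 78 alternative values, 62 were counted as keeping their direction within the limit, 11 as keeping it past the limit, and 5 as changing direction. For H3K27ac in mdxTLR4-/- over mdx the main median was 1. None of its alternatives could therefore count as a change of direction, although they ran from 0.769 to 1.14. Other alternatives could not differ from their main value. Cutting the lists of a mark to the same number of peaks kept the smallest list whole, which was mdx for H3K27ac and WT for H3K27me3. The 1st percentile of H3K27ac density was 2.19 reads per kb in both WT and mdx, so scaling by it left that ratio unchanged. The limit was 1.5 times for a count of genes and, for a median ratio, the counting interval of the summed reads. Scaled per 1000000 reads in peaks, the median H3K27ac ratio of mdx over WT changed direction to 1.09, and the H3K27me3 medians of mdx over WT and mdxTLR4-/- over mdx changed to 0.872 and 1.08. The H3K27me3 median of mdx over WT also changed direction relative to the 1st percentile, to 0.917, and by read counts, to 0.995. Scaling per 1000000 reads in peaks gave 0.885 for H3K27ac and 0.983 for H3K27me3 in mdxTLR4-/- over WT. Relative to the 1st percentile, the H3K27me3 medians of mdxTLR4-/- over mdx and over WT were 0.998 and 0.951. Read counts in place of density gave 0.769 for H3K27ac in mdxTLR4-/- over mdx. With a window of 2 kb on either side of the start, the H3K27me3 medians were 0.715 (mdxTLR4-/- over mdx) and 0.803 (mdxTLR4-/- over WT), and 3 genes had H3K27me3 in mdxTLR4-/-. Within 50 kb of the start, 10 genes had H3K27me3 in mdx, against 7 in WT and 7 in mdxTLR4-/-. In that span the median protein-coding gene had 2 H3K27me3 peaks in mdx and 1 in WT and in mdxTLR4-/-. Counting a peak within 500 bp as over the start gave 2 genes under H3K27me3 in mdx and 2 in mdxTLR4-/-. The shares of protein-coding genes that met these alternative rules were not counted. Over all annotated genes, the share with a peak in the window was 19.2% to 22.7% for H3K27ac and 28.0% to 30.7% for H3K27me3.

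No paired analysis was possible because the authors merged the replicates before calling peaks, and leaving out a replicate was not possible for the same reason. H3K27ac peaks of few reads limit every H3K27ac comparison of Fosb, Jund, Egr1, Egr2 and Fosl1.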
